A study of Drosophila melanogaster with 15 samples.

Results

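The antennal transcriptome of group-housed *Or47b* mutant males (*Or47b1*) was compared with that of group-housed wild-type males (w1118 GH), with 3 samples on each side. The comparison took all genes that passed a filter on low counts, which were 10358 of the 17490 genes in the tables, and 6 of the 15 samples of the series. Each sample held RNA from the antennae of 90 males aged 7 days, 180 antennae in all. The study's methods name the third antennal segment as the dissected tissue, and its results speak of whole antennae. In group housing 25 to 30 males shared a vial. The wild-type strain was w1118. The mutant males were homozygous for the allele *Or47b1* and, according to the study's methods, also for the transgenes *Or47b-GAL4* and *UAS-mCD8GFP*, which the w1118 males did not carry. Loss of the receptor, the transgenes and the remaining genetic background therefore cannot be told apart in any difference reported here. The series also holds single-housed w1118 males (w1118 SH) and group-housed *Or67dGAL4* and *fruLexA/fru4-40* males, which entered the same fit and serve below to show which differences set the *Or47b1* samples apart from every other group. The comparison addresses how the antennae of males with this receptor mutation and these transgenes differ from those of w1118 males.

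The third antennal segment is the main smell organ of the fly. Its hairs, the sensilla, house olfactory receptor neurons together with support cells that secrete odorant-binding proteins into the lymph around the neurons. Or47b is an odorant receptor of the trichoid sensilla called at4, where neurons with Or88a and Or65a lie next to it, and it detects fatty-acid-derived cues of other flies that raise male courtship. Or67d, of the at1 sensilla, detects the male pheromone cis-vaccenyl acetate.

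The counts on genes summed to between 10949849 and 14908299 in the w1118 GH samples and to between 8784260 and 11380499 in the *Or47b1* samples. Levels are given as CPM, the counts scaled to a common library size by TMM, and the detection floor of 3 counts corresponds to 0.201 to 0.342 CPM. Such limits cover counting error only, and nothing in the labels says whether the samples of a group came from separate cultures, so p-values measure the spread between these samples. Neuron markers were present in both groups, with sums over 7 genes of 2894 to 3139 CPM in w1118 GH and 3193 to 3522 CPM in *Or47b1*, and the sums over 8 glial genes were 3399 to 3674 and 3664 to 3806 CPM. Markers of the eye, a neighbouring organ, were higher in *Or47b1*, where the 14 genes summed to 182 to 258 CPM against 135 to 150.4 CPM in w1118 GH, and of 8 tested 4 rose and none fell, with a median log2 fold change of 1.66, or 1.11 with the member at the floor set to its bound. The 12 markers of Johnston's organ, in the 2nd antennal segment, summed to 1000 to 1146 CPM in w1118 GH. In *Or47b1* they summed to 1019 to 1443 CPM, and none of the 12 was called. The part of eye and 2nd segment tissue in the results was not tested. Replicate 2 of w1118 GH stood apart. In it 724 genes lay more than 4-fold above both other w1118 GH samples, against 10 and 21 in those, and 21 testis and sperm genes, such as *loopin-1* (0, 91.4 and 0 CPM in the 3 samples), summed to 722 CPM against 11.9 and 14.4 CPM in the other w1118 GH samples and 10.1 to 15.5 CPM in *Or47b1*. Muscle genes summed to 698 CPM in that sample and to 84.6 to 268 CPM in the other 5. Of these 724 genes 189 were tested and 24 were called, 23 of them as lower in *Or47b1*. Without this sample 1869 genes were called. The number of called genes was 1219 with the *fruLexA/fru4-40* sample that the study left out. In w1118 GH replicate 1 heat shock genes stood high, and in replicate 2 of each group genes of the CheA and CheB families did. Both are given with those families.

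Of the 10358 tested genes, 2117 (20.4%) differed between *Or47b1* and w1118 GH at an edgeR adjusted p under 0.05. *Or47b1* had higher levels of 1084 genes (10.5%) and lower levels of 1033 (9.97%). Most differences were small. The median size was 0.62 on the log2 scale, 1387 of the called genes changed by less than 2-fold, and 172 rose and 192 fell by more than 4-fold. In 2095 of the 2117 genes the 3 samples of one group all lay above the 3 of the other, which was the case for 40.8% of all tested genes. The median log2 fold change of all tested genes was -0.01. With scaling by total counts only, the split was 901 higher to 1352 lower, with a median over all tested genes of -0.06. Exons of 679 of the called genes and of 3712 tested genes overlap those of another gene, and since the libraries were not stranded, reads from such genes cannot be told apart. Of the genes named below these include *Or47a*, *Or23a*, *Or88a*, *Ir60a*, *Ir75d*, *Gr64f*, *Obp69a*, *Obp84a*, *pros*, *nompA*, *GluRIIA*, *Vmat*, *unc79*, *Tmc*, *pyx*, *Irk1*, *subdued*, *Ets21C*, *dsx*, *Hr4*, *Fpps*, *GstE1*, *Est-6*, *BomS4*, *BaraA1*, *SdhA*, *Unc-115a*, *Ank2* and *asRNA:CR44030*, which overlaps *fuss*.

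**Figure D1:**
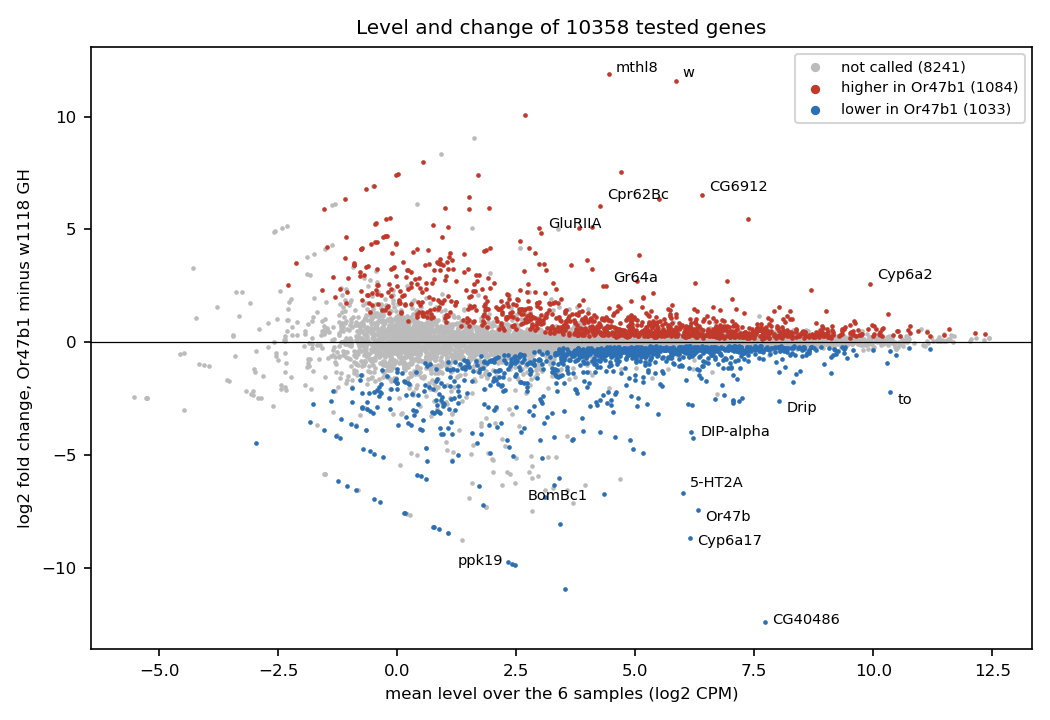
Log2 fold change (*Or47b1* minus w1118 GH, vertical axis) against the mean level over the 6 samples in log2 CPM (horizontal axis). Each point is a gene, 1084 of them higher (red) and 1033 lower (blue), and 3 tested genes with no count in the 6 samples are not drawn. *Or47b*, *5-HT2A* and *Cyp6a17* lie far below 0 at levels where most genes lie near 0.

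*Or47b* (FBgn0026385, a protein-coding gene on the minus strand at chr2R:11319710-11321312 of the dm6 assembly) was at 159.8, 164 and 150.2 CPM in the w1118 GH samples and at 1.06, 0.912 and 0.688 CPM in the *Or47b1* samples (log2 fold change -7.43, standard error 0.15, edgeR adjusted p = 5.7e-12). It was the only one of 6 receptors of the at1 and at4 sensilla that was called. *Or88a*, the receptor of the neighbouring neuron, had 4.41, 4.1 and 3.12 CPM in w1118 GH and 3.1, 3.45 and 3.44 in *Or47b1* (edgeR adjusted p = 0.51), and *Or65a*, of the other neighbour, had 59.2, 62.2 and 56.2 CPM in w1118 GH and 62.2, 70.9 and 61.1 CPM in *Or47b1* (edgeR adjusted p = 0.35). *Or65b* and *Or65c* had log2 fold changes of 0.04 and 0.23, with standard errors of 0.11 and 0.15. *Or67d* was at 90.1, 88.6 and 84.2 CPM in w1118 GH and at 85.5, 95.1 and 69.3 CPM in *Or47b1*, and its groups overlapped.

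Among the 42 tested odorant receptors, 13 fell and 4 rose in *Or47b1*, with a median log2 fold change of -0.16. The share called was 40.5%, beside 20.4% of all tested genes. After *Or47b*, the largest fall among receptors above 10 CPM was in *Or85b*, a receptor of the basiconic sensilla ab3, which went from 68.4, 67.8 and 62.6 CPM to 12.1, 9.73 and 7.91 CPM (log2 fold change -2.73, standard error 0.14, edgeR adjusted p = 1.7e-08). *Or49b* fell from 25.8, 25.2 and 24.7 to 11.4, 11 and 12.3 CPM and *Or7a* from 54, 49.4 and 51.5 to 24.8, 27.9 and 27.4 CPM. Both are receptors of small basiconic sensilla, and the falls were 2.19-fold and 1.94-fold with no overlap of the groups. *Or42b* and *Or92a*, the vinegar-sensing receptors of the large sensilla ab1, had log2 fold changes of -0.73 and -0.52 (edgeR adjusted p = 0.00015 and 0.0010). *Or69a*, *Or19a*, *Or19b*, *Or85a* and *Or43a* fell by less than 2-fold, and the calls of *Or85a* and *Or43a* were lost in 4 and 5 of the 14 fits that each leave out 1 of the 14 samples fitted (highest edgeR adjusted p = 0.15 and 0.15). *Or42a* and *Or71a*, receptors of the maxillary palp, were near the limit of detection, at 3.05, 3.64 and 2.86 against 0.0887, 0.507 and 0.573 CPM and at 1.1, 0.911 and 0.981 against 0.0887, 0.405 and 0.115 CPM, and the call of *Or71a* was lost in 6 of the 14 fits with 1 sample left out (highest edgeR adjusted p = 0.13).

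The 4 odorant receptors that rose did so by similar amounts. *Or47a* went from 50.3, 42.4 and 47.1 CPM to 80.3, 77.9 and 70.3 CPM (log2 fold change 0.71, standard error 0.11, edgeR adjusted p = 0.00034). *Or13a*, the partner of *Or49b* in the sensilla ab6, went from 40.9, 39.4 and 42.1 to 62.8, 68.8 and 63 CPM, so that the 2 receptors of one sensillum moved in opposite directions. *Or23a* and *Or83c*, which neighbour each other in intermediate sensilla, had log2 fold changes of 0.70 and 0.73 (edgeR adjusted p = 0.0086 and 0.0034). In RNA from whole antennae, fewer neurons of a type and less receptor RNA per neuron cannot be told apart. For Or47b neurons, the study counted cells in males aged 7 days and reports comparable numbers in control and *Or47b* mutant antennae.

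**Figure D2:**
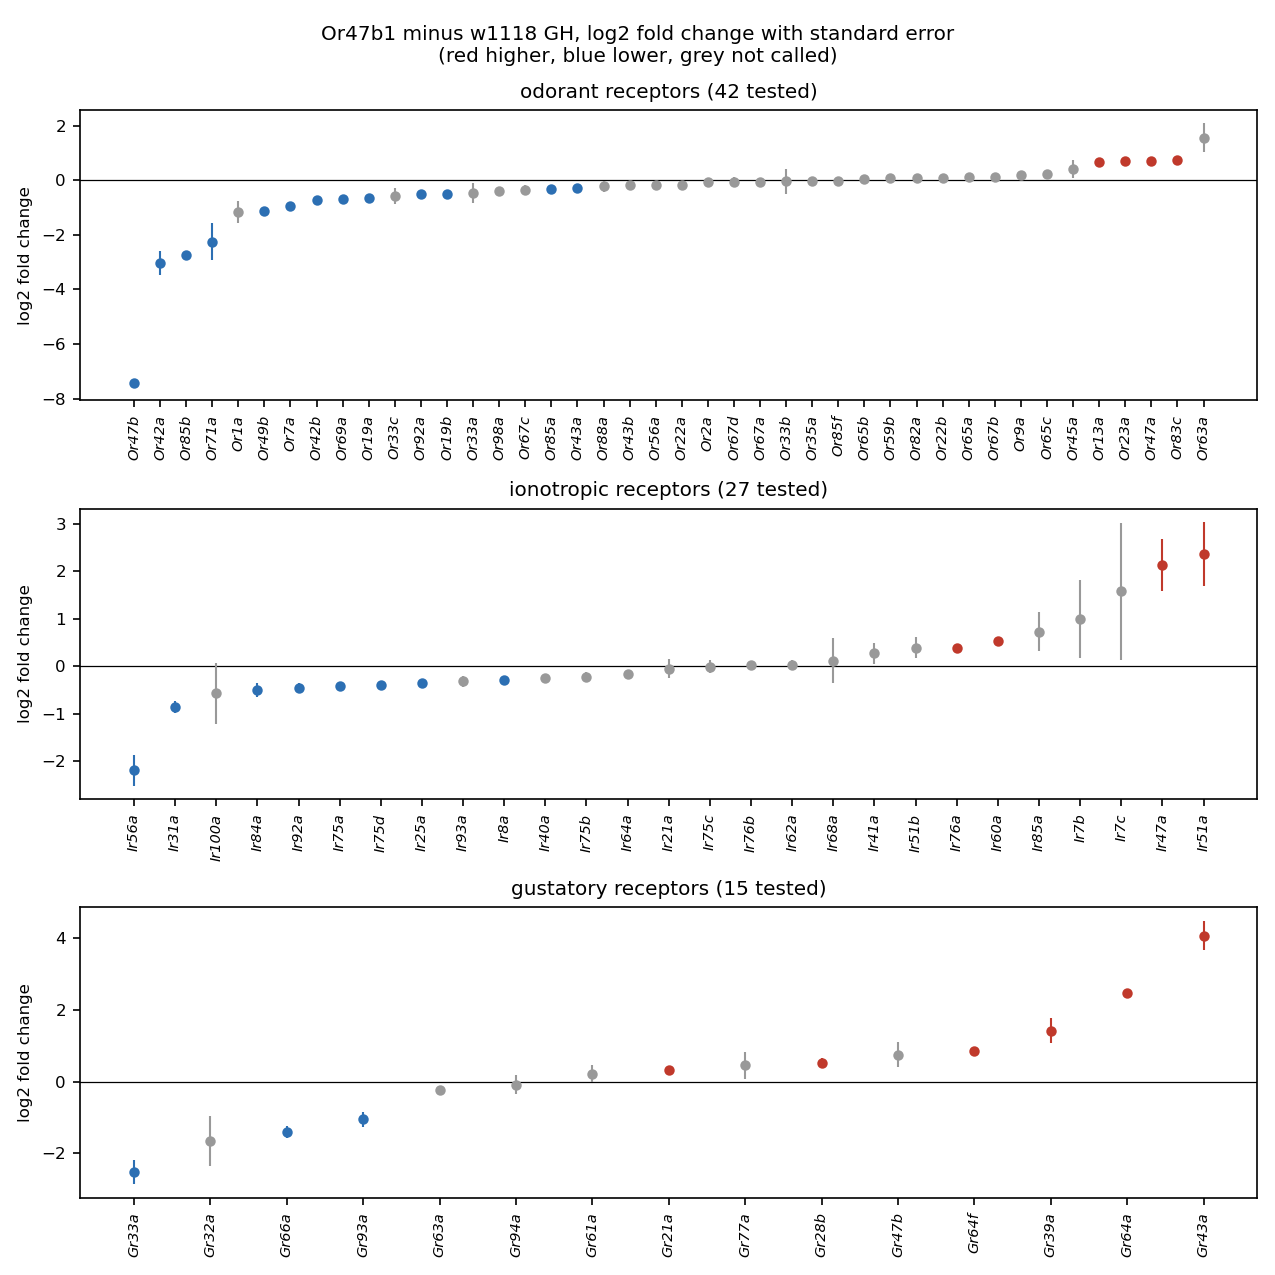
Log2 fold change (*Or47b1* minus w1118 GH) of each tested odorant, ionotropic and gustatory receptor, with bars of 1 standard error. *Or47b* lies at -7.43, 13 of 42 odorant receptors and 8 of 27 ionotropic receptors are lower (blue), and 6 of 15 gustatory receptors are higher (red).

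Ionotropic receptors, the second antennal family, include the tuning receptors of coeloconic sensilla. Of 27 tested, 8 were lower and 4 higher (44.4% called, beside 20.4% of all tested genes), with a median log2 fold change of -0.05. The 8 include *Ir56a* and the co-receptors *Ir25a* and *Ir8a*, which are counted again below. Without w1118 GH replicate 1 or *Or47b1* replicate 1, 2 were higher. *Ir31a* fell from 67.3, 63.4 and 61.9 CPM to 34, 38.2 and 34.4 CPM (log2 fold change -0.85, standard error 0.13, edgeR adjusted p = 0.00044). *Ir75a*, a receptor for acetic acid, went from 155, 153 and 156 to 118, 125 and 106 CPM, and *Ir75d* and *Ir92a* had log2 fold changes of -0.38 and -0.46. *Ir84a*, which detects food odours that raise male courtship, went from 39, 41.3 and 33.5 to 28.3, 27.1 and 25 CPM with no overlap (log2 fold change -0.50, standard error 0.14, edgeR adjusted p = 0.026), but its call was lost in 5 of the 14 fits with 1 sample left out (highest edgeR adjusted p = 0.093). *Ir56a*, a gene known from taste neurons, fell from 3.7, 4.28 and 4.02 to 0.887, 1.01 and 0.688 CPM. *Ir60a* rose from 14.5, 16.4 and 14.2 to 23, 19.9 and 21.9 CPM.

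The co-receptors, which carry the tuning receptors to the cilium, and the SNMP proteins changed by less than 2-fold. Of these 6 genes 4 fell and none rose (66.7% called, beside 20.4% of all tested genes), with a median log2 fold change of -0.31. Without w1118 GH replicate 1 or *Or47b1* replicate 3, 2 fell. *Ir25a*, the broad ionotropic co-receptor, fell from 504, 506 and 488 CPM to 389, 417 and 368 CPM (log2 fold change -0.35, standard error 0.07, edgeR adjusted p = 0.0017). *Ir8a*, the co-receptor of the acid-sensing receptors, went from 225, 207 and 225 to 185, 185 and 168 CPM (edgeR adjusted p = 0.019), and this call was lost without w1118 GH replicate 1, w1118 GH replicate 3 or *Or47b1* replicate 3 (highest edgeR adjusted p = 0.084). *Orco*, the co-receptor of all odorant receptors, was at 2624, 2769 and 2751 CPM in w1118 GH and at 2774, 2961 and 2609.5 CPM in *Or47b1*, with overlapping groups (edgeR adjusted p = 0.81), and *Ir76b* differed by 0.02 on the log2 scale, with a standard error of 0.08. Of the CD36-like membrane proteins, *Snmp1*, which pheromone-sensing neurons need, fell from 2569, 2637 and 2567 to 2069, 2145 and 1981 CPM (log2 fold change -0.33, standard error 0.08, edgeR adjusted p = 0.0076). *Snmp2*, made in support cells, went from 136, 94.1 and 112 to 63.7, 70.8 and 53.7 CPM, with the call lost without w1118 GH replicate 1 or *Or47b1* replicate 3 (highest edgeR adjusted p = 0.053).

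Gustatory receptors are few in the antenna, and 15 were tested, of which 6 rose and 3 fell (median log2 fold change 0.31). The share called was 60%, beside 20.4% of all tested genes. The sugar receptor gene *Gr64a* had 6.55, 5.92 and 6.78 CPM in w1118 GH and 37.2, 33.1 and 36.5 CPM in *Or47b1*, a 5.54-fold increase (log2 fold change 2.47, standard error 0.11, edgeR adjusted p = 4.5e-09). *Gr43a*, the fructose receptor, was at 0.389, 0.547 and 0.268 CPM and 8.25, 7.7 and 4.7 CPM (log2 fold change 4.07, standard error 0.41, edgeR adjusted p = 1.3e-05), although its exons overlap those of *Dhx15* and the libraries were not stranded. *Gr64f* and *Gr39a* had log2 fold changes of 0.84 and 1.42. The 3 genes that fell are known from bitter taste. *Gr66a* fell from 5.9, 5.56 and 5.09 to 1.86, 2.23 and 2.18 CPM (log2 fold change -1.40, standard error 0.17, edgeR adjusted p = 6.1e-05), *Gr33a* from 4.09, 2.92 and 4.19 to 0.532, 0.811 and 0.573 CPM, and *Gr93a*, needed for the taste of caffeine, had a log2 fold change of -1.06 (edgeR adjusted p = 0.0024).

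Odorant-binding proteins rose more often than they fell, with 14 of 31 tested genes higher and 4 lower and a median log2 fold change of 0.42. In this family 58.1% were called, beside 20.4% of all tested genes. Of the 10 most abundant members, 9 rose, each by less than 2-fold, and *Obp19a* did not pass the test. *lush*, whose product is needed to sense cis-vaccenyl acetate, rose from 831, 909.6 and 857 CPM to 1278, 1270.0 and 1283 CPM (log2 fold change 0.56, standard error 0.08, edgeR adjusted p = 0.00017). *Obp83a*, of the trichoid sensilla, rose from 3628, 4054 and 3927 to 5065, 5328 and 5095 CPM (log2 fold change 0.42, standard error 0.08, edgeR adjusted p = 0.0031), and *Obp28a*, of basiconic sensilla, from 1343, 1464 and 1405 to 2071, 2012 and 1928 CPM. The log2 fold changes of *Obp69a*, *Obp83b* and *Obp19d* were 0.31, 0.31 and 0.37, and their calls were lost in 4, 5 and 4 of the 14 fits with 1 sample left out (highest edgeR adjusted p = 0.12, 0.10 and 0.10). *Obp84a*, of coeloconic sensilla, went down, from 54.1, 54.3 and 51.6 to 18.8, 19.6 and 17 CPM (log2 fold change -1.53, standard error 0.09, edgeR adjusted p = 6.7e-08). The largest folds were in members near the floor. *Obp99d* rose from 1.69, 0.82 and 0.803 to 5.94, 5.17 and 6.19 CPM, *Obp56c* was at least 5.22-fold higher and *Obp99a* at least 3.49-fold lower. Such bounds set the mean of one group against 3 counts in the smallest library of the group at or under 3 counts. The 9 markers of sensillum support cells, 7 of which are also odorant-binding proteins, summed to 13689 to 15662 CPM in w1118 GH and to 19198 to 19998 CPM in *Or47b1*. Of the others, *pros* rose and *nompA*, which anchors the dendrite of the sensory neuron, fell from 26.1, 32 and 30.2 to 14.7, 17.2 and 10.5 CPM.

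CheA and CheB genes encode small secreted proteins known from taste hairs, where some take part in sensing pheromones. Of 19 tested, 2 rose and 1 fell, with a median log2 fold change of 3.16, or 1.44 with the members at the floor set to their bounds. Without w1118 GH replicate 1, 2 fell. The share called was 15.8%, beside 20.4% of all tested genes. *CheB42b* was at 2.79, 8.29 and 2.5 CPM in w1118 GH and at 15.3, 17.1 and 13.3 CPM in *Or47b1* (log2 fold change 1.79, standard error 0.30, edgeR adjusted p = 0.00092), and *CheB93b* at 1.36, 1.46 and 0.981 CPM in w1118 GH and at 6.3, 17.7 and 10.3 CPM in *Or47b1*. *CheA7a* had 2.53, 24.8 and 4.64 CPM in w1118 GH and no count in *Or47b1*, at least 31.2-fold lower. The family's sum was 9.5, 90.8 and 14.9 CPM in the w1118 GH samples and 26.8, 120.5 and 28.2 CPM in the *Or47b1* samples, so replicate 2 of each group held several times as much as the others. The part of those 2 libraries in the other members' values was not tested.

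Pickpocket genes encode sodium channel subunits, and 5 of 15 fell and 2 rose (median log2 fold change -0.00), or 1 rose without any 1 of the w1118 GH samples or without *Or47b1* replicate 1 or 2. The share called was 46.7%, beside 20.4% of all tested genes. *ppk25*, which amplifies the responses of Or47b and Ir84a neurons, went from 6.03, 5.19 and 4.91 CPM to 12, 13.1 and 10.2 CPM (log2 fold change 1.12, standard error 0.15, edgeR adjusted p = 0.00013). *ppk7* and *ppk14* fell from 7.4, 7.11 and 7.32 to 2.75, 1.12 and 1.95 CPM and from 6.42, 7.56 and 6.96 to 3.01, 1.52 and 2.64 CPM, and *ppk15* and *ppk5* had log2 fold changes of -1.38 and -0.50. *ppk19* had 12.6, 9.66 and 11.2 CPM in w1118 GH and no count in *Or47b1*, at least 32.6-fold lower. Its exons overlap those of *Bub3*.

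**Figure D3:**
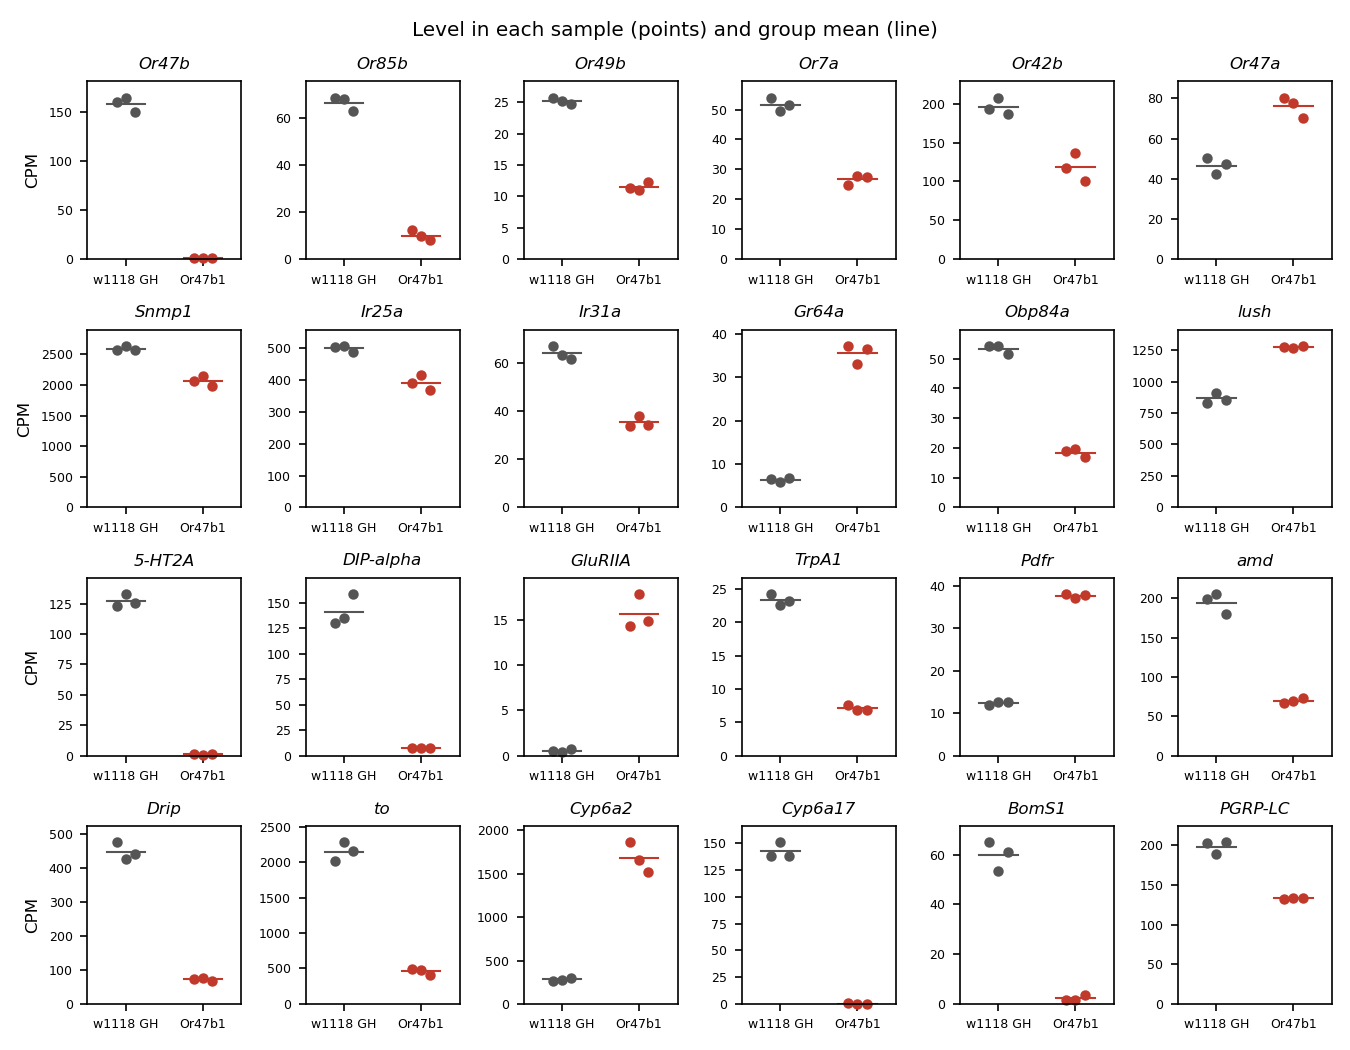
Level in CPM (vertical axis, from 0) of 24 genes in each of the 3 w1118 GH (grey) and 3 *Or47b1* (red) samples, with a line at each group mean. The groups do not overlap for any gene shown, from *Snmp1*, with 2567 to 2637 against 1981 to 2145 CPM, to *Or47b*, with 150.2 to 164 against 0.688 to 1.06 CPM.

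Of 8 serotonin genes, the receptor *5-HT2A* fell from 123, 133 and 125 CPM to 1.33, 0.811 and 1.49 CPM (log2 fold change -6.70, standard error 0.17, edgeR adjusted p = 2.8e-11), while the receptor *5-HT2B* and the vesicular amine transporter *Vmat* rose, from 107, 109.8 and 106 to 176, 183 and 165 CPM and from 192, 205 and 209 to 301, 323 and 300.1 CPM. *GluRIIA*, a glutamate receptor subunit best known from muscle, rose from 0.519, 0.364 and 0.714 to 14.3, 17.8 and 14.9 CPM (log2 fold change 4.85, standard error 0.24, edgeR adjusted p = 1.5e-08). Of 19 genes of dopamine, octopamine and tyramine, 5 rose and 2 fell (36.8% called, beside 20.4% of all tested genes, median log2 fold change 0.36). The dopamine receptors *Dop1R1* and *Dop1R2*, the dopamine transporter *DAT* and the receptors *Octbeta2R* and *Oct-TyrR* had log2 fold changes of 1.00, 1.13, 0.96, 0.94 and 0.86, the call of the last lost in 3 of the 14 fits with 1 sample left out (highest edgeR adjusted p = 0.076). *amd*, a decarboxylase-like gene of cuticle formation, fell from 199, 205 and 179.5 to 67.3, 69.4 and 72.8 CPM (log2 fold change -1.48, standard error 0.14, edgeR adjusted p = 9.1e-06), and the tyramine receptor gene *TyrRII* fell from 3.18, 3.1 and 3.39 to 0.532, 0.608 and 0.459 CPM. None of 15 acetylcholine genes was called at an edgeR adjusted p under 0.05, with a median log2 fold change of 0.40, 1 at an unadjusted p under 0.05, 1 called without w1118 GH replicate 3 and none by DESeq2. With w1118 SH in place of w1118 GH as the reference, 7 of these genes were higher and 1 lower.

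Among 22 neuropeptide receptors, 3 rose and 5 fell (median log2 fold change 0.18). *Pdfr*, the receptor of the clock peptide PDF, went from 11.9, 12.6 and 12.7 CPM to 38, 37.2 and 37.8 CPM (log2 fold change 1.61, standard error 0.12, edgeR adjusted p = 7.6e-07), and *Dh44-R1*, a diuretic hormone receptor, from 14.4, 15.3 and 13.7 to 31.1, 29.4 and 26 CPM. *Lgr1*, a receptor of the glycoprotein hormone family, fell from 38.9, 36.9 and 39.1 to 18.9, 17.2 and 15.4 CPM (log2 fold change -1.15, standard error 0.11, edgeR adjusted p = 4.9e-06). Of 25 sodium, calcium and TRP channel genes, 8 rose and 3 fell (median log2 fold change 0.24). *TrpA1*, a channel for heat and irritants, fell from 24.2, 22.5 and 23.1 to 7.54, 6.89 and 6.88 CPM (log2 fold change -1.71, standard error 0.13, edgeR adjusted p = 6.4e-07), and the warmth-activated *pyx* had a log2 fold change of -1.04. *Tmc*, a mechanosensory channel gene, rose from 0.778, 1.09 and 0.892 to 5.5, 4.26 and 3.78 CPM, and *unc79*, a subunit of the sodium leak channel, from 10.8, 10.2 and 21.6 to 56.4, 42.3 and 72.9 CPM (log2 fold change 2.02, standard error 0.29, edgeR adjusted p = 0.00027). Of 21 potassium channel genes 4 rose and 1 fell, or 2 rose without w1118 GH replicate 1 or 2 or *Or47b1* replicate 1 or 3, with *Irk1* going from 9.15, 12.1 and 11.8 to 21.5, 23.1 and 22.1 CPM (log2 fold change 1.02, standard error 0.19, edgeR adjusted p = 0.0015). *Sh* had 309, 379 and 416 CPM in w1118 GH and 581, 655 and 577 CPM in *Or47b1*, and its call was lost in 5 of the 14 fits with 1 sample left out (highest edgeR adjusted p = 0.10). In olfactory transduction, 7 of 28 genes rose and 1 fell, or 4 rose without w1118 GH replicate 1 or *Or47b1* replicate 2 or 3. *rdgB*, a lipid transfer protein, rose from 165, 172 and 167 to 238, 243 and 235 CPM, and *subdued*, a chloride channel, fell from 46.6, 43.2 and 46 to 28.4, 31.5 and 27.4 CPM. Beside 20.4% of all tested genes, the share called was 23.8% of potassium channel genes and 28.6% of transduction genes. It was 36.4% of neuropeptide receptors and 44.0% of sodium, calcium and TRP channel genes.

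Cell recognition proteins of the DIP, dpr, beat and side families guide which neurons connect, and 9 of 50 rose and 5 fell (median log2 fold change 0.18). *DIP-alpha* had 129.9, 135 and 158 CPM in w1118 GH and 7.54, 7.5 and 7.22 CPM in *Or47b1*, 19-fold less (log2 fold change -4.24, standard error 0.11, edgeR adjusted p = 2.8e-11). Its exons overlap those of *ppk8* and *CG2875*, so the reads of these genes cannot be told apart without strand. *side-II* fell from 34.6, 29.2 and 33.5 to 16.8, 19.1 and 18.3 CPM, and *beat-IIIc* and *dpr13* rose from 19.7, 17.5 and 20.6 to 40.7, 47.1 and 38.4 CPM and from 11.8, 13 and 14.5 to 26.7, 27.7 and 25.5 CPM. Of 24 transcription factors of olfactory neuron identity, *pdm3*, a POU-domain factor of receptor choice, rose from 154, 175 and 153 to 222, 245 and 235 CPM and *Fer1* fell from 156, 159 and 158 to 101, 104 and 91.4 CPM, and the other 22 did not pass the test. *fru*, the courtship regulator, was at 73, 85.2 and 75.3 CPM in w1118 GH and at 70.3, 91.1 and 78.8 CPM in *Or47b1* (edgeR adjusted p = 0.87). *dsx* was the 1 called gene of 16 in sex determination, at 17.1, 23.1 and 20.5 CPM in w1118 GH and at 26.8, 29.5 and 29.5 CPM in *Or47b1* (log2 fold change 0.50, standard error 0.15, edgeR adjusted p = 0.033), and that call was lost in 5 of the 14 fits with 1 sample left out. Of 14 activity-regulated factors 3 fell and 1 rose, and *Ets21C* fell from 59.6, 63.2 and 62 to 24.3, 25.1 and 21.6 CPM (log2 fold change -1.38, standard error 0.11, edgeR adjusted p = 8.4e-07). Beside 20.4% of all tested genes, the share called was 28.0% of the recognition genes and 28.6% of the activity-regulated factors. It was 8.33% of the identity factors and 6.25% of the sex determination genes.

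Genes tied to juvenile hormone, the hormone that tunes the sensitivity of Or47b neurons with age, fell where they were called, 5 of 16 with none higher, or 3 of 16 without w1118 GH replicate 1 or any 1 of the *Or47b1* samples. *Jheh3*, which degrades the hormone, fell from 187, 174 and 177 CPM to 122, 118 and 114 CPM (log2 fold change -0.61, standard error 0.08, edgeR adjusted p = 0.00020). *Fpps*, an early enzyme of the pathway that makes it, had a log2 fold change of -0.68 (edgeR adjusted p = 0.0016). *Jhe*, the hormone's esterase, was at 16.6, 35.4 and 14.1 CPM in w1118 GH and at 3.55, 5.37 and 6.19 CPM in *Or47b1* with no overlap, but its call was lost in 10 of the 14 fits with 1 sample left out (highest edgeR adjusted p = 0.16). The median of the list was 0.07. *takeout* (*to*), a clock-controlled gene whose product belongs to a family that binds juvenile hormone and which acts in male courtship, fell by more CPM than any other called gene, from 2012, 2280.0 and 2162 CPM to 486, 481 and 410.1 CPM (log2 fold change -2.23, standard error 0.16, edgeR adjusted p = 4.1e-07). Of 22 ecdysone genes 7 rose and 1 fell, among them *Hr4*, a nuclear receptor, from 5.77, 6.01 and 5.26 to 10.6, 11 and 18.6 CPM (log2 fold change 1.23, standard error 0.20, edgeR adjusted p = 0.00075), and *ImpL1*, at least 12-fold higher. The number of ecdysone genes that rose was 3 without w1118 GH replicate 1 or *Or47b1* replicate 3 and 4 without w1118 GH replicate 3. Beside 20.4% of all tested genes, the share called was 31.25% of juvenile hormone genes and 36.4% of ecdysone genes.

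Enzymes that modify foreign compounds and odours were called in both directions. The share called was 35.9% of the P450 genes, 45.5% of the UDP-glycosyltransferase genes and 32.4% of the glutathione transferase genes, beside 20.4% of all tested genes. Of 64 cytochrome P450 genes, 11 rose and 12 fell (median log2 fold change 0.01, or -0.05 with scaling by total counts only). *Cyp6a2*, known from insecticide resistance, gained more CPM than any other called gene, from 268, 278 and 298 CPM to 1861, 1654 and 1515 CPM (log2 fold change 2.57, standard error 0.15, edgeR adjusted p = 6.4e-08). *Cyp6a17*, known for a role in temperature preference, was at 138, 151 and 138 CPM in w1118 GH and at 0.532, 0.101 and 0.344 CPM in *Or47b1* (log2 fold change -8.68, standard error 0.22, edgeR adjusted p = 2.8e-11), and the related *Cyp6a22* at 12.4, 18.1 and 15.2 CPM in w1118 GH and at 0.621, 0.912 and 0.688 CPM in *Or47b1*. *Cyp6a20*, a gene of support cells linked to male aggression, fell from 1462, 1509 and 1478 to 1180.3, 1215 and 1030.1 CPM (log2 fold change -0.38, standard error 0.08, edgeR adjusted p = 0.0029). Of 22 UDP-glycosyltransferase genes 7 rose and 3 fell (median log2 fold change 0.22). *Ugt35B1* rose from 2359.5, 2819.9 and 2157 to 3691, 3835 and 3578 CPM and *Ugt35A1* from 67.2, 66 and 60.1 to 135, 131 and 133 CPM, while *Ugt35C1* fell from 235, 209 and 238 to 43.1, 36.8 and 33.8 CPM (log2 fold change -2.58, standard error 0.17, edgeR adjusted p = 1.7e-07). The number of these genes that fell was 1 without w1118 GH replicate 1, w1118 GH replicate 3, *Or47b1* replicate 2 or *Or47b1* replicate 3. Of 34 glutathione transferase genes 6 rose and 5 fell (median log2 fold change -0.02). *GstE1* fell from 282, 179 and 229.7 to 38.2, 30.3 and 36.2 CPM (log2 fold change -2.72, standard error 0.20, edgeR adjusted p = 5.9e-07) and *GstE5* from 187, 173 and 154 to 83.5, 73.8 and 72.7 CPM. *Est-6*, an esterase that degrades pheromone esters, rose from 1785, 2307 and 1618 to 2501, 2657 and 2538 CPM (log2 fold change 0.43, standard error 0.10, edgeR adjusted p = 0.0083).

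Antimicrobial peptide genes fell, 12 of 25 with 1 higher (52% called, beside 20.4% of all tested genes) and a median log2 fold change of -0.97. Leaving out any 1 of the compared samples gave 11 or 12 lower. Bomanins, secreted peptides of the Toll response to fungi and Gram-positive bacteria, led them. *BomS1* was at 64.9, 53.5 and 60.9 CPM in w1118 GH and at 1.77, 1.72 and 3.44 CPM in *Or47b1* (log2 fold change -4.72, standard error 0.22, edgeR adjusted p = 6.7e-09), *BomBc1* at 41.3, 38 and 40.6 CPM in w1118 GH and at 0.355, 0.405 and 0.344 CPM in *Or47b1* (log2 fold change -6.72, standard error 0.29, edgeR adjusted p = 4.3e-09), and *BomS2* at 31.2, 31.1 and 55 CPM in w1118 GH and at 4.79, 3.35 and 9.29 CPM in *Or47b1*. *BomS4* and *BomS5*, less abundant, had log2 fold changes of -4.67 and -4.07. *BaraA1*, another Toll-induced gene, fell from 57, 55 and 61.3 to 6.56, 10.2 and 7.8 CPM. The *Bom* genes are short, clustered and alike in sequence, so reads may have been split among them. Among genes of the Imd pathway, a separate immune pathway, *PGRP-LC*, the receptor for Gram-negative bacteria, fell from 203, 189 and 204 to 133, 133 and 133 CPM (log2 fold change -0.58, standard error 0.06, edgeR adjusted p = 1.3e-05), *PGRP-LA* from 66, 61.4 and 65.3 to 36.4, 35.9 and 44.7 CPM, and *Rel*, the pathway's NF-kappaB factor, had a log2 fold change of -0.35 (edgeR adjusted p = 0.0024). Of 24 genes of immune recognition and signalling 7 fell and 3 rose (41.7% called, beside 20.4% of all tested genes, median log2 fold change -0.11). The fat body, which makes most such peptides, had marker sums of 1547 to 1739 CPM in w1118 GH and 1385 to 1541 CPM in *Or47b1*, and hemocyte markers of 266 to 320 and 242 to 260 CPM. Their part in these values was not tested.

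The calls of heat shock and Turandot genes depended on single libraries. Of 25 heat shock genes 9 fell and none rose (36% called, beside 20.4% of all tested genes), with a median log2 fold change of -1.44. *Hsp70Bbb* was at 603, 53 and 92 CPM in w1118 GH, with replicate 1 far above the others, and at 40.6, 39.9 and 42.5 CPM in *Or47b1*, and *Hsp26* at 82.5, 5.65 and 7.58 CPM in w1118 GH and at 4.08, 3.35 and 6.88 CPM in *Or47b1*. Without w1118 GH replicate 1, 2 heat shock genes fell, without w1118 GH replicate 2, 14 did, without w1118 GH replicate 3, 12 did, and without any 1 of the *Or47b1* samples, 1 did. The *Hsp70* genes are near-identical copies among which reads cannot be placed with certainty. The Turandot stress peptide genes *TotA* and *TotC* were at 7.2, 11.9 and 19.6 CPM and at 1.95, 4.19 and 6.6 CPM in w1118 GH and at 3.01, 1.62 and 0.459 CPM and 0.709, 0.608 and 0.573 CPM in *Or47b1*, and with w1118 SH in place of w1118 GH as the reference their log2 fold changes were 3.23 and 5.79. *TotA* lost its call without *Or47b1* replicate 2 or 3 and *TotC* in 4 of the 14 fits with 1 sample left out. *MtnA*, a metal-binding metallothionein, fell from 52.7, 55 and 57.7 to 15.1, 13.1 and 20.3 CPM (log2 fold change -1.78, standard error 0.14, edgeR adjusted p = 1.2e-06) and kept its call in all those fits.

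**Figure D4:**
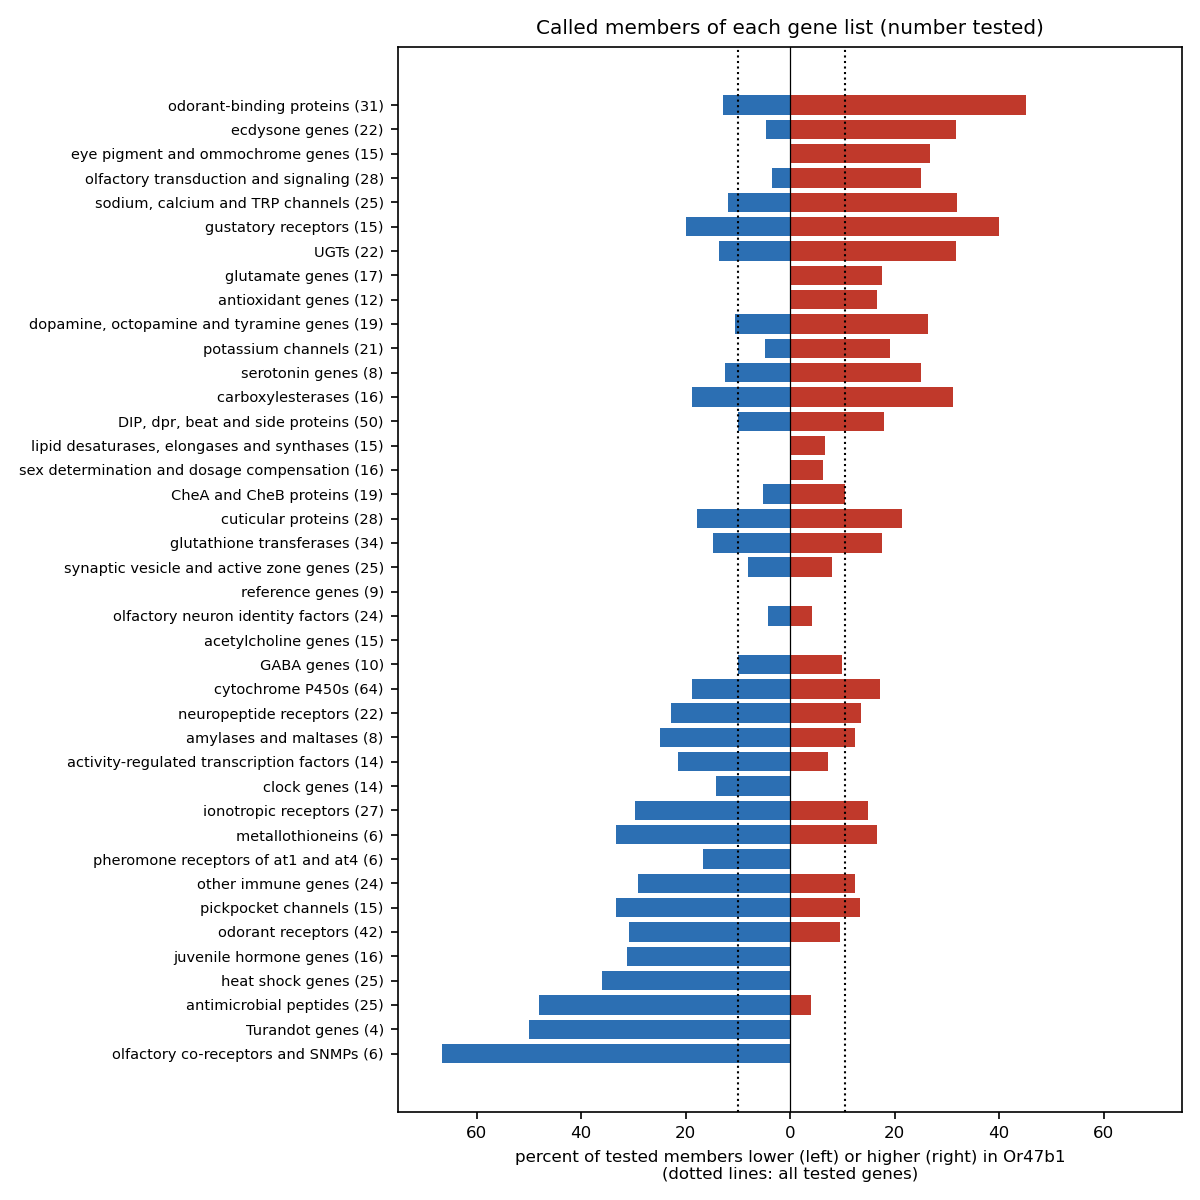
Percent of the tested members of each gene list that were lower (blue, left) or higher (red, right) in *Or47b1*, with the number tested after each name and dotted lines at 9.97% lower and 10.5% higher for all tested genes. Histones are not drawn. Odorant-binding proteins reach 14 of 31 higher, antimicrobial peptides 12 of 25 lower and heat shock genes 9 of 25 lower.

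The largest decreases and increases among non-overlapping called genes were mostly in genes with little known function that were at or near 0 in one group. *CG40486* had 431, 409 and 436 CPM in w1118 GH and 0, 0 and 0.229 CPM in *Or47b1*, at least 1245-fold lower. *CG30428* had 21.5, 24.8 and 23.1 CPM in w1118 GH and no count in *Or47b1*, at least 67.8-fold lower, and *lncRNA:CR45502*, *asRNA:CR44030*, *lncRNA:CR44377* and *CG14563* had none either, with lower bounds of the fold of 29.3, 12.2, 10.7 and 9.89. *CG10317*, at 0.843, 8.75 and 0.625 CPM in w1118 GH and with no count in *Or47b1*, rested on w1118 GH replicate 2, without which it no longer passed the filter on low counts. In the other direction, *mthl8*, a member of the Methuselah receptor family, had no count in w1118 GH and 42.9, 47.1 and 40.7 CPM in *Or47b1*, at least 159-fold higher. *white* (*w*), the eye pigment transporter that is mutated in w1118 and that marks many transgenes, was at 0, 0.0911 and 0 CPM in w1118 GH and at 127.6, 114.9 and 103.2 CPM in *Or47b1*, at least 421-fold higher. *CG6912* rose from 1.43, 2.1 and 2.14 to 164, 178 and 163 CPM (log2 fold change 6.50, standard error 0.14, edgeR adjusted p = 9.1e-12), and *asRNA:CR45600*, whose exons overlap it, from 0.13, 0.364 and 0.357 to 49.7, 56.4 and 48 CPM. *CG43149* was uneven, at 7.98, 4.46 and 25.9 CPM against no count. Increases of at least 23.4-fold, 7.12-fold and 4.63-fold were seen for *CG31516*, *CG1850* and *CG10887*. In all, 64 called genes had no more than 3 counts in any *Or47b1* sample and 61 had no more than 3 in any w1118 GH sample.

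By change in level rather than fold, the losses after *to* were led by *lncRNA:noe*, a noncoding RNA of the nervous system, from 1429, 1688 and 1802 CPM to 793, 895 and 919 CPM, and *IA-2*, a protein of dense-core vesicles, from 1506, 1834 and 1769.7 to 1077, 1102 and 1246 CPM. *Tina-1* fell from 804, 797 and 786 to 307, 318 and 286 CPM, *Unc-115a*, an actin-binding protein of axon guidance, from 491, 501 and 497 to 141, 138 and 152 CPM, and *SdhA*, a subunit of mitochondrial complex II, from 868, 846 and 874 to 506, 544 and 543 CPM (log2 fold change -0.70, standard error 0.08, edgeR adjusted p = 4.2e-05). *Drip*, a water channel, fell from 475, 427 and 442 to 74.3, 77.2 and 67 CPM (log2 fold change -2.62, standard error 0.07, edgeR adjusted p = 3.0e-11). Gains went to *dpy*, a giant protein of the apical matrix, from 836, 856 and 583 to 1734, 1636 and 1949 CPM (log2 fold change 1.23, standard error 0.17, edgeR adjusted p = 0.00016), and to *shot*, a linker of actin and microtubules, from 1777, 1672 and 1453 to 2353, 2295 and 2228 CPM. *Ank2*, a neuronal ankyrin, had 1274, 1411 and 1251 CPM in w1118 GH and 2814, 1953 and 1768 CPM in *Or47b1* and lost its call in 10 of the 14 fits with 1 sample left out. *dpy*, *shot* and *Ank2* have long transcripts, and the eighth of genes with the longest exons, 5246 bases and more, had 228 of 1295 members higher and 57 lower, with a median log2 fold change of 0.08. These genes took 27.6% to 28.0% of the CPM in w1118 GH and 28.8% to 29.5% in *Or47b1*, and the part of RNA quality in that was not tested.

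Which of these differences set the *Or47b1* samples apart from all other groups was asked with 4 contrasts that share the *Or47b1* samples, against w1118 GH, w1118 SH, *Or67dGAL4* and *fruLexA/fru4-40*. In all 4, 264 genes were higher and 266 lower, 2.55% and 2.57% of tested genes and together 5.12%, which were 25.0% of those called against w1118 GH. *Or47b* was among them, with mean levels of 158 CPM in w1118 GH, 175 in w1118 SH, 147 in *Or67dGAL4* and 98.8 in *fruLexA/fru4-40* against 0.888 in *Or47b1*. By the smallest of the 4 differences, *CG40486*, *CG30428*, *lncRNA:CR45502*, *Cyp6a17* and *CheA7a* led the lower genes. *Cyp6a17* had means of 142, 123, 278 and 226 CPM in the 4 other groups against 0.326 in *Or47b1*. The higher genes were led by the overlapping *lncRNA:CR45791* and *lncRNA:CR44057*, by *Lmx1a*, a LIM-homeodomain factor, at 8.25, 8.62 and 5.62 CPM in *Or47b1* against means of 0.12, 0, 0.102 and 0 CPM, by the cuticle gene *Cpr62Bc*, at 36.4, 40.3 and 37 CPM against means of 0.581, 0.59, 0.781 and 0.812 CPM, and by *CG43168*. *Gr64a*, *Dop1R2*, *DAT*, *5-HT2B*, *Vmat*, *Dh44-R1*, *unc79* and *Hr4* were also higher than in every other group, and *Or85b*, *Or42a*, *Or49b*, *Or69a*, *to*, *amd*, *Obp84a*, *MtnA*, *Lgr1*, *Ugt35C1* and *Jheh3* lower. *Drip* was also lower than in every other group, with means of 448, 467, 343 and 387 CPM against 72.8. *Cyp6a2*, *GluRIIA*, *BomS1*, *5-HT2A* and *DIP-alpha* were not among these 530 genes. *Cyp6a2* had means of 1946 CPM in *Or67dGAL4* and 992 in *fruLexA/fru4-40*, beside 1676 in *Or47b1*, *GluRIIA* 16.9 and 11.6 beside 15.7, *BomS1* 2.11 and 5.58 beside 2.31, *5-HT2A* 0.565 and 1.05 beside 1.21, and *DIP-alpha* 4.88 and 5.01 beside 7.42. The contrasts of these 3 mutants with w1118 GH share its samples.

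The called genes were also counted by position. *Or47b* is on arm 2R, and 515 of 2124 tested genes on that arm were called (24.2%), against 20.9% on 2L, 21.9% on 3L, 19.2% on 3R, 16.1% on X and 6.45% on the small chromosome 4, with 6 of 93. Along 2R it was 24.0% within 1 Mb of *Or47b* (19 higher and 29 lower of 200), 25.1% from 1 to 5 Mb and 23.5% beyond. Called genes within 1 Mb include *nompA*, *Fpps* and *Or47a*, named above, at -9.4, -14.2 and -69.3 kb from *Or47b*. The largest differences within 1 Mb were *lncRNA:CR45228*, at least 3.4-fold higher (not past the filter on low counts without *Or47b1* replicate 2 or 3), the paired P450 genes *Cyp12d1-p* and *Cyp12d1-d*, *salto* and *Drip*. *Cyp12d1-p* fell from 50.2, 61.6 and 57.9 CPM to 2.57, 2.94 and 2.87 CPM (log2 fold change -4.34, standard error 0.17, edgeR adjusted p = 2.1e-09) and its near-identical neighbour *Cyp12d1-d* from 25.3, 27.6 and 20.3 to 0.975, 1.72 and 1.03 CPM, and reads of the pair may have been split between them. *salto* was at 0.584, 54.5 and 1.07 CPM in w1118 GH and at 0.887, 1.01 and 1.15 CPM in *Or47b1*, so its call rested on w1118 GH replicate 2, without which its log2 fold change was 0.32 (edgeR adjusted p = 0.81).

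**Figure D5:**
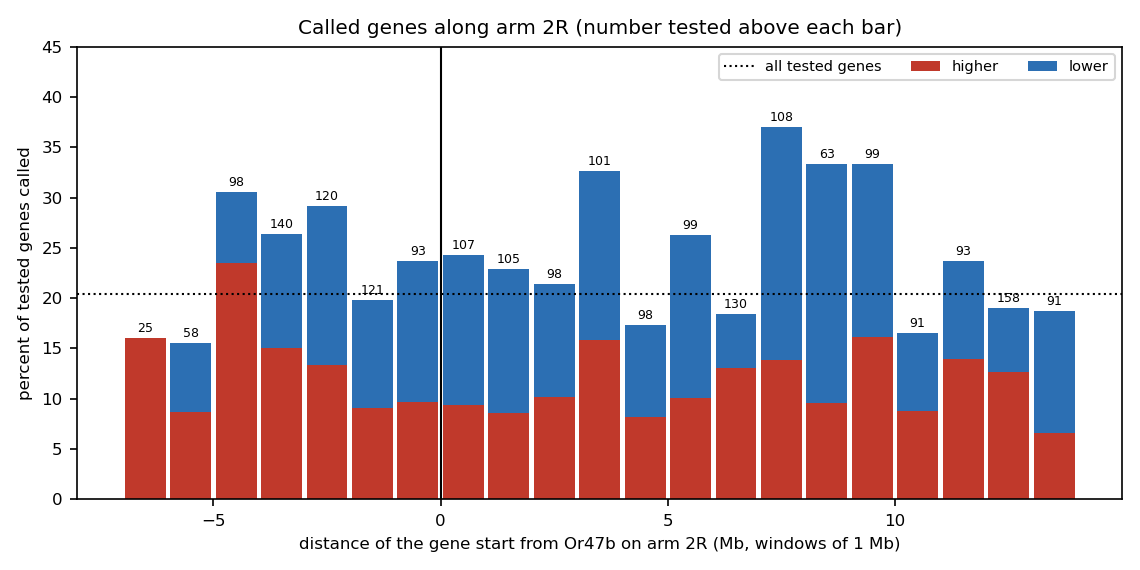
Percent of tested genes called higher (red) or lower (blue) in *Or47b1* in windows of 1 Mb along arm 2R, by distance of the gene start from *Or47b* (at 0), with the number of genes tested above each bar. Windows with fewer than 20 tested genes are not drawn. The bars next to *Or47b*, 23.7% and 24.3%, stand beside the dotted line at 20.4% for all tested genes, and the tallest, 37.0%, lies 7 to 8 Mb away.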

How the data were processed

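RNA-seq read counts per gene of 15 antennal samples were used. The libraries were made by polyA selection without strand marking. According to the study's methods and the submitters' processing notes, the authors used FASTP for trimming and MapSplice2 for mapping to dm6, dropped duplicate and poorly mapped reads, and counted the rest per gene with featureCounts. SAMtools was also used. Versions and the annotation release are not given in the sources used here. The deposited values are raw counts, with replicates not pooled. Removing duplicates lowers the counts of very abundant or short genes.

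The counts were tested with edgeR 4.0.16 in R 4.3.3 (TMM scaling, low-count filter by group, quasi-likelihood test, Benjamini-Hochberg adjustment over all tested genes, threshold 0.05), with all groups in 1 fit so that they share one estimate of the spread. As in the study, *fruLexA/fru4-40* replicate 1 was left out, leaving 14 samples. A second result took genes called with the same sign against each of the 4 other groups. CPM values were scaled by TMM, and tables were handled in Python 3.11.15 with pandas 2.3.3, numpy 2.4.6 and matplotlib 3.10.9. DESeq2 1.42.0, which the authors used with shrinkage, was an alternative, as were other scalings, filters, thresholds, references, sample sets and a replicate block. Total counts on genes were 8784260 to 14908299 per compared sample. The floor was 3 counts. On simulated data for this comparison (10140 genes), 19 of 50 genes changed 1.5-fold, 39 of 50 changed 2-fold, 48 of 50 changed 4-fold and 45 of 49 changed 8-fold were recovered, and 10 unchanged genes were called.

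Genes were named by rule: *Or47b*; the 10 largest increases and decreases among called genes whose samples do not overlap; the 10 largest gains and losses in CPM; up to 6 called members of each list; the 5 leading genes per direction against every other group; and the 5 largest differences within 1 Mb of *Or47b*. Further list members, *loopin-1* and the testis and sperm list were chosen after values were seen. The comparison and the gene lists were chosen with earlier results of these data known. Gene positions and overlaps came from the Ensembl annotation, in which 17288 of 17490 genes were found, 17144 at the same position. 1 list member is not reported here.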

Additional observations from a re-analysis of the deposited data

How the results depend on the processing

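The number of genes called in *Or47b1* against w1118 GH, 2117, was 1219 with *fruLexA/fru4-40* replicate 1 in the fit (all 15 samples), 1257 at an adjusted p under 0.01 and 868 with the adjusted p times 4 under 0.01. Leaving out 1 sample gave 1570 to 2312. DESeq2 gave 2109 on all groups. With only w1118 GH and *Or47b1* fitted, DESeq2 gave 2744 and edgeR 2538. The number that differed from every other group, 530, was 316, 286 and 179 under the same 3 settings, and 382 to 518 with 1 sample left out, and fits on the compared groups only give no value for it. With scaling by total counts only, 901 genes were higher and 1352 lower. Same-numbered samples of the groups had deviations that correlated at -0.02, 0.13 and 0.23, and differently numbered samples at -0.29 to 0.084. The labels give replicate numbers only, and these values do not settle whether the numbers pair the samples. A replicate block gave 2147 genes and 551 against every other group.

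Of 152 called genes among 162 named, 119 had the same call in every other setting that gave a value, samples left out apart, and 133 with each sample left out in turn. Directions turned for *TotA* (0.19 with w1118 GH and SH together as the reference, 3.23 with w1118 SH), *TotC* (1.55 and 5.79) and *salto* (0.027 with w1118 SH, -4.76 to 0.32 with 1 sample left out, the latter without w1118 GH replicate 2). Among genes that were not called, they turned for *Orco* (-0.018 with total counts only, -0.047 with w1118 GH and SH, -0.13 with w1118 SH, -0.010 to 0.081 with 1 sample left out), *fru* (-0.012, -0.041, -0.12, and -0.061 to 0.13), *Ir76b* (-0.030, -0.021 and -0.064 under the first 3), *Or65b* (-0.0093 with total counts only, -0.0067 to 0.077 with 1 sample left out), *Or67d* (-0.18 to 0.044 with 1 sample left out), *Obp19a* (-0.024 with w1118 SH) and *loopin-1* (5.03 with w1118 SH, -7.55 to 5.02 with 1 sample left out, the latter without w1118 GH replicate 2). The cause was not tested. On the simulated data 19 of 50 genes changed 1.5-fold were recovered. Far fewer genes were changed there than were called here, which makes the adjusted p stricter. The share of such differences missed in these data was therefore not measured.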

Other observations

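Cuticular protein genes, which build the outer wall of the antenna and its hairs, were called in both directions, 6 of 28 tested higher and 5 lower. The share called was 39.3%, beside 20.4% of all tested genes. *Cpr64Ac* rose from 3.83, 3.37 and 2.5 CPM to 34.2, 36 and 23 CPM (log2 fold change 3.25, standard error 0.27, edgeR adjusted p = 1.7e-06) and *Cpr92A* fell from 24.8, 9.47 and 16.6 to 0.0887, 0.101 and 0.229 CPM (log2 fold change -6.87, standard error 0.50, edgeR adjusted p = 5.4e-07). Of 8 tested starch and sugar digesting enzymes, the maltase gene *Mal-A1*, whose exons overlap those of *Cyp4e1*, fell from 15.4, 16.3 and 16.8 to 1.06, 1.62 and 2.18 CPM (log2 fold change -3.33, standard error 0.29, edgeR adjusted p = 3.3e-06). None of 9 reference genes was called by edgeR, 1 of them at an unadjusted p under 0.05.

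Of 75 tested histone genes 42 were higher in *Or47b1* and none lower, with a median log2 fold change of 2.54, or 2.09 with 14 members at the floor set to their bounds. The share called was 56%, beside 20.4% of all tested genes. The summed level of all histone genes was 1672 to 1825 CPM in w1118 GH and 1751 to 1881 CPM in *Or47b1*. Most of these genes are near-identical copies whose reads cannot be placed with certainty, and replication-dependent histone mRNAs lack the polyA tail on which the libraries were selected.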
